A study of Homo sapiens with 6 samples.

Results

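The glutathione, thioredoxin and NRF2 antioxidant genes were followed in gastric carcinoma cells exposed to celecoxib. This set was a list of 41 genes for cystine import, glutathione, thioredoxin, iron and NADPH, and a gene was included where a transcript cluster of the array carried its symbol and no other. The rule found 40 of the 41 among the 18417 genes of the table, and FTH1, the ferritin heavy chain, was not analysed here. Each gene was read from 1 transcript cluster, the one with the highest mean over all arrays.

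RNA came from the human gastric carcinoma line AGS, an established cell line, and was measured on Affymetrix HuGene-1_0-st arrays. One group was treated with 20 µM celecoxib, an inhibitor of the inducible cyclooxygenase, for 24 h, and the other was an untreated control. Each group had 3 arrays, called biological replicates in the labels, which also mention pooling after the RNA quality check. The p-values therefore cover the spread among these arrays alone, and part of it may be technical. The drug stock was made in DMSO, and the labels do not say whether control wells got the solvent. All cells were of 1 line.

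Array medians lay between 6.75 and 6.82 on the log2 scale, and any 2 arrays correlated at 0.985 to 0.996 (Pearson's r across clusters). The epithelial markers EPCAM, KRT8, KRT18 and KRT19 lay between 11.12 and 12.69 on all arrays, and CDH1, the fifth of these markers, read 7.69, 8.01 and 7.98 on the celecoxib arrays, against 8.01, 7.98 and 7.90 on the control arrays. Of 9 markers of leukocytes, endothelium, fibroblasts and hepatocytes, 8 had a mean below the median of all clusters, 6.785, and COL1A1 was above it. In bulk RNA, fewer cells with a transcript and less of it per cell cannot be told apart. No scan date or batch was given, so none was tested.

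Cells hold their thiols reduced through a pair of connected systems. Cystine enters through the exchanger that SLC7A11 forms with SLC3A2, is reduced to cysteine and is built into glutathione by glutamate-cysteine ligase (GCLC, GCLM) and glutathione synthetase (GSS). Glutathione peroxidases and peroxiredoxins then remove peroxides at the expense of glutathione or thioredoxin, and GSR and the thioredoxin reductases regenerate these with NADPH. NRF2, encoded by NFE2L2, is held low by KEAP1 and, when released, binds antioxidant response elements near many of these genes. Iron stored in ferritin is kept away from the reactions that oxidise lipids.

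The antioxidant response element was looked for in RefSeq promoters (GRCh38.p14, 250 bases before to 50 bases after each start), since it is the sequence through which NRF2 acts. Promoters were listed for 33 of the 40 genes, and not for SLC7A11, GSS, GSR, MGST2, PRDX1, PRDX6 and HMOX1. The letters TGACNNNGC followed by an A, read on both strands, stood in at least 1 promoter of 8 of the 33 (24.2%), against 3.94% of 27305 genes and 3.18% of 35116 promoters. TGACNNNGC with any base after it, which includes every match of the longer form, stood in 11 of the 33 (33.3%), against 16.1% of genes and 13.3% of promoters. The list was drawn up to hold NRF2 antioxidant genes, so these shares describe the choice of genes and are not a result of these data. The following stretches show the matches for a subunit of the ligase, a peroxidase, a transferase, a thioredoxin reductase, a lipid radical guard, the repressor of NRF2 and a source of NADPH, with 20 bases on either side where they end before the start, and with the matched letters in capitals. ME1 held the shorter form alone.
GCLM, chr1:93909436-93909485, minus strand: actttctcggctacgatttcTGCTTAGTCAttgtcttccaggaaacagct
GPX2, chr14:64942839-64942888, minus strand: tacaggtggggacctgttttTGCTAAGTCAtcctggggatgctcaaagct
GSTP1, chr11:67583726-67583775, plus strand: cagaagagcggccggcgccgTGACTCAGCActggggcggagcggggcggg
TXNRD1, chr12:104286909-104286958, plus strand: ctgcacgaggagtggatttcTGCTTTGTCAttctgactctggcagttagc
AIFM2, chr10:70132826-70132868, minus strand: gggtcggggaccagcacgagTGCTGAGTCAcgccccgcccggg
KEAP1, chr19:10502774-10502823, minus strand: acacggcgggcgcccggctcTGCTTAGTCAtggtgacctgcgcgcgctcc
ME1, chr6:83431160-83431208, minus strand: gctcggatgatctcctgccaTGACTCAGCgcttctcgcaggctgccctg

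In GCLM, GPX2, TXNRD1, AIFM2 and KEAP1 the capitals are the reverse complement of the motif. A match describes these letters only. The 8 genes with the longer form had a median celecoxib minus control difference of 0.06 on the log2 scale. The 25 with a listed promoter but without the longer form, ME1 among them, had 0.16. Without celecoxib replicate 1 these medians were 0.04 and 0.06. NQO1, FTL and SLC40A1 had no match to either form in this window. Bases outside it were not searched, so a gene without a match here may still hold the element further away.

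The comparison asked which of these genes differ between celecoxib-treated and control cells. One gene rose past the threshold, the cystine transporter SLC7A11, at 1.52-fold. SLC40A1, ME1, FTL and NQO1 followed with 1.25- to 1.35-fold higher levels that did not pass it. TKT and CHAC1 were the genes whose celecoxib values all lay below the controls. No gene of the set differed 2-fold.

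Of the 40 genes, 1 (SLC7A11) passed an adjusted p of 0.05 in limma, fitted and adjusted over all 18417 genes, where 0.141% of all genes passed in either direction, 0.076% as higher and 0.0652% as lower. All 3 celecoxib values lay above all 3 controls in 12 of the 40 (30.0%), against 11.1% of all genes, and below them in 2 (5.0%), against 7.95% of all genes. An unadjusted p under 0.05 was reached by 8 higher genes, where the share over all genes was 6.87%, and by 1 lower gene, where it was 4.44%. The difference was positive in 32 of 40 (80.0%), against 47.9% of all genes, and its median was 0.13 against -0.007 over all genes. The genes were chosen with earlier results of these data known, so these shares are descriptions.

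**Figure D1:**
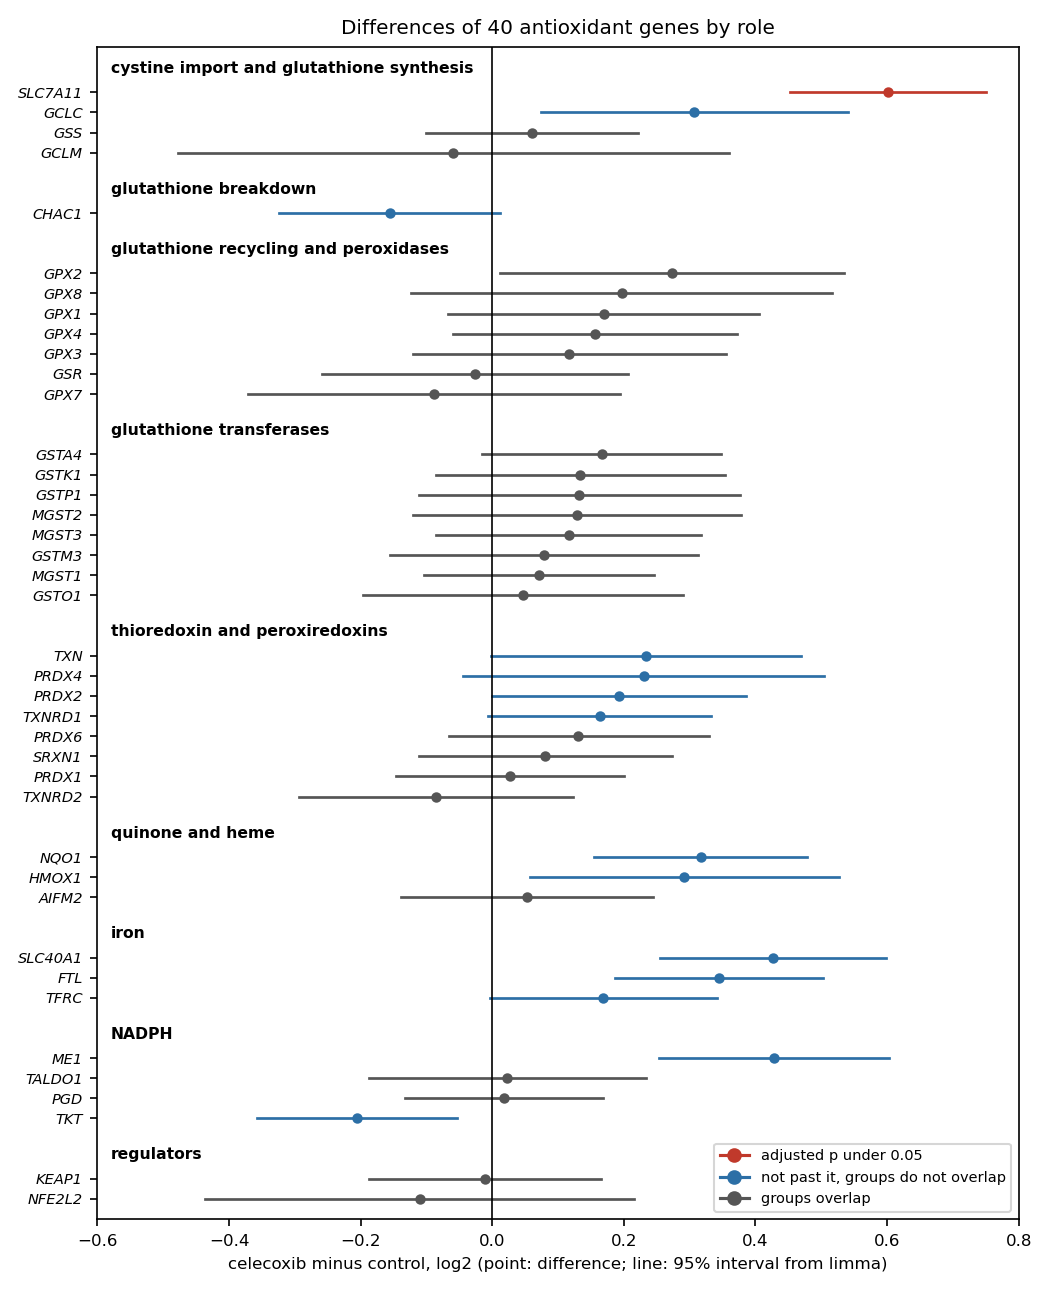
Celecoxib minus control difference (log2, horizontal axis) of the 40 genes, grouped by role on the vertical axis, with 95% intervals from limma (n = 3 arrays per group). SLC7A11 (0.60) is the only one past an adjusted p of 0.05 (red); blue marks other genes whose groups do not overlap and grey those that overlap.

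Among the genes that supply glutathione, the transporter and 1 subunit of the ligase stood out. SLC7A11 (transcript cluster 8102800) read 9.63, 9.60 and 9.62 on the celecoxib arrays, against 9.06, 9.01 and 8.98 on the control arrays (log2 RMA values). The celecoxib arrays differed by only a few hundredths among themselves and lay clear of every control. The difference was 0.60 ± 0.06 (SE, n = 3 per group, limma adjusted p = 0.0296), the 7th smallest p of all genes. It lay between 0.58 and 0.62 when any 1 array was left out, but the adjusted p was then 0.0724 to 0.237. The call held in 9 of 17 alternatives.

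GCLC, the catalytic subunit of glutamate-cysteine ligase, read 9.19, 9.45 and 9.39 with celecoxib, against 9.07, 9.16 and 8.88 in controls. The groups did not overlap, but celecoxib 1 lay only just above control 2. The difference was 0.31 ± 0.10 (SE, adjusted p = 0.352). GCLM, the modifier subunit of the same enzyme, read 6.86, 7.29 and 6.92 with celecoxib, against 7.16, 7.39 and 6.70 in controls, so its groups overlapped widely (-0.06, 95% interval -0.48 to 0.36, and 0.02 without celecoxib 1). GSS, which adds glycine in the last step, differed by 0.06 (interval -0.10 to 0.22), and by 0.03 without celecoxib 1.

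CHAC1, which cleaves glutathione inside the cell, went the other way. It read 7.98, 7.96 and 7.84 with celecoxib, against 8.13, 8.11 and 8.02 in controls, and every celecoxib value was the lower. The difference was -0.16 ± 0.07 (SE, adjusted p = 0.459).

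Glutathione supply beyond these genes was described with a list of 21, of which 16 were measured. In it 7 differences were positive and 9 negative (median -0.015, and 0.055 without celecoxib 2), and 0 passed in limma, where 3 had an unadjusted p under 0.05. Over all genes 2083 of 18417 had such a p in either direction, which is the share to set beside this and the later lists. SLC3A2, the heavy chain that partners SLC7A11 in the exchanger, read 10.55, 10.48 and 10.44 with celecoxib, against 10.24, 10.25 and 10.18 in controls. Its groups did not overlap, and the difference was 0.27 ± 0.07 (SE, adjusted p = 0.266). GGCT, which releases oxoproline from gamma-glutamyl compounds in glutathione turnover, differed by 0.31 ± 0.12, and by 0.18 without celecoxib 1. SLC1A5, a transporter of glutamine read only from the brighter of its 2 clusters, differed by -0.24 ± 0.09, and by -0.166 without celecoxib 1. In both genes, all celecoxib values lay on 1 side of the controls, and neither passed (adjusted p = 0.385 and 0.380).

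Glutathione recycling and peroxidases did not separate the groups: in all 7 genes they overlapped, as in 14910 of all 18417 genes. The median difference was 0.16, and 0.06 without celecoxib 1. GPX2, the epithelial peroxidase of the gut, came nearest, with 12.08, 11.80 and 11.99 in celecoxib arrays, against 11.66, 11.51 and 11.88 in controls. Only control 3 reached into the celecoxib values, and the difference was 0.27 ± 0.11 (SE, adjusted p = 0.427). GPX4, which reduces lipid hydroperoxides in membranes, read 11.99, 11.73 and 11.67 with celecoxib, against 11.62, 11.62 and 11.67 in controls. Celecoxib 1 alone stood well above the rest, and without it the difference was 0.06 in place of 0.16.

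GSR, the reductase that returns oxidised glutathione to its reduced form, differed by -0.03 (interval -0.26 to 0.21), and by 0.05 without celecoxib 1. GPX3, the secreted peroxidase, differed by 0.12 and GPX8, an endoplasmic reticulum member, by 0.20, while GPX7, also of that compartment, differed by -0.09. Without celecoxib 1 the differences were 0.016 for GPX3, 0.067 for GPX8 and -0.026 for GPX7. GPX1, the cytosolic peroxidase, had 2 transcript clusters that disagreed in sign. The brighter one, 8180346, differed by 0.17 ± 0.11, and the other, 8087405, by -0.08 ± 0.07 (SE, fit over all clusters). The direction of GPX1 is thus uncertain, although the counts and medians of the set use the brighter cluster.

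Glutathione transferases, which join glutathione to reactive compounds, all had small positive differences. The 8 genes ranged from 0.05 (GSTO1) to 0.17 (GSTA4), with a median of 0.12, and the groups overlapped in every one. Without celecoxib 1 the median was 0.03, with 6 of the 8 positive. GSTP1, the abundant transferase of many carcinomas, read 12.50, 12.17 and 12.23 with celecoxib, against 12.17, 12.05 and 12.29 in controls. MGST1, a membrane-bound transferase, read 10.85, 10.68 and 10.72 with celecoxib, against 10.68, 10.61 and 10.75 in controls. Both showed a single high array, celecoxib 1, and 7 of the 8 transferases had their highest value there. GSTM3 (0.08), GSTK1 (0.13), MGST2 (0.13) and MGST3 (0.12) completed the group.

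A further 20 peroxidases, transferases and glyoxalase genes were listed, of which 18 were measured. Of these 11 differences were positive and 7 negative (median 0.04), and 0 passed in limma, where 2 had an unadjusted p under 0.05. Without celecoxib 1 the direction of the list turned, with 7 of the 18 positive and a median of -0.027. GSTA1, an alpha-class transferase close in sequence to its relatives, so that its cluster may read several, read 7.12, 6.84 and 6.77 with celecoxib, against 6.64, 6.36 and 6.46 in controls. The difference was 0.42 ± 0.11 (SE, adjusted p = 0.276), and 0.315 without celecoxib 1. The mean of GSTA1 lay below the median of all clusters. GPX5, a peroxidase known from the epididymis, differed by -0.43 ± 0.09 (adjusted p = 0.147), and its mean lay below the median of all clusters.

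Of the 8 genes of the thioredoxin system, 7 had a positive difference (median 0.15), and none passed the test. In 4 of them all celecoxib values lay above all controls, as was the case in 11.1% of all genes. Without celecoxib 1 the median was 0.085, with 6 positive. TXN, thioredoxin itself, read 11.60, 11.35 and 11.27 with celecoxib, against 11.22, 11.05 and 11.24 in controls. Its cytosolic reductase TXNRD1 read 9.15, 9.04 and 8.99 with celecoxib, against 8.95, 8.84 and 8.89 in controls. In both the lowest celecoxib array lay only just above the highest control, and celecoxib 1 was the highest array. The differences were 0.23 ± 0.10 for TXN (SE, adjusted p = 0.442) and 0.16 ± 0.07 for TXNRD1 (adjusted p = 0.448). Without celecoxib 1 they were 0.14 and 0.12.

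Of the peroxiredoxins, most of which reduce peroxides with electrons from thioredoxin, PRDX2 (cytosolic) and PRDX4 (endoplasmic reticulum) had no overlap. PRDX2 read 8.02, 7.79 and 7.86 with celecoxib, against 7.64, 7.67 and 7.78 in controls (0.19 ± 0.08, SE, adjusted p = 0.441, and 0.13 without celecoxib 1). PRDX4 read 9.40, 8.99 and 8.97 with celecoxib, against 8.92, 8.80 and 8.96 in controls (0.23 ± 0.12, adjusted p = 0.497). The other two celecoxib arrays of PRDX4 stood at the upper edge of the controls, and without celecoxib 1 the difference was 0.09. PRDX6 differed by 0.13 (0.07 without celecoxib 1), PRDX1 by 0.03 (-0.03 without it) and SRXN1, which repairs overoxidised peroxiredoxins, by 0.08. TXNRD2, the mitochondrial reductase, differed by -0.08 (interval -0.29 to 0.12).

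Of 24 further genes with a thioredoxin fold or for oxidant removal, 22 were measured and 20 had a positive difference (median 0.12). In 16 of the 22 the highest value was on celecoxib 1, and without it the median was 0.056, with 18 positive. None passed in limma, where 4 had an unadjusted p under 0.05. TXNIP, an alpha-arrestin that binds thioredoxin, read 12.64, 12.62 and 12.68 with celecoxib, against 12.11, 12.15 and 12.23 in controls. The celecoxib arrays lay close together and far above the controls, and the difference of 0.48 ± 0.07 just missed the threshold (SE, adjusted p = 0.0546). GLRX, the glutaredoxin of the cytosol, differed by 0.30 ± 0.08 and SESN1, a sestrin, by 0.26 ± 0.07, both with an adjusted p of 0.280 and no overlap.

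NQO1 and HMOX1 are classical NRF2 targets. NQO1, which reduces quinones, read 12.34, 12.21 and 12.20 with celecoxib, against 11.90, 11.93 and 11.97 in controls. All celecoxib values lay well clear of all controls, and the difference was 0.32 ± 0.07 (SE, adjusted p = 0.197). HMOX1, which breaks down heme, read 8.66, 8.32 and 8.30 with celecoxib, against 8.17, 8.12 and 8.12 in controls.

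The HMOX1 difference was 0.29 ± 0.10 (adjusted p = 0.363), and it was 0.18 without celecoxib 1. AIFM2, a reductase that keeps membrane quinones in their radical-trapping form, differed by 0.05 (interval -0.14 to 0.24), with overlapping groups.

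In all 3 measured iron genes every celecoxib value lay above every control, as was the case in 11.1% of all genes. SLC40A1, which encodes ferroportin, the exporter of iron, read 8.57, 8.38 and 8.51 with celecoxib, against 8.09, 8.04 and 8.05 in controls. FTL, the ferritin light chain, read 13.14, 13.09 and 13.09 with celecoxib, against 12.79, 12.69 and 12.81 in controls. In both genes the lowest celecoxib array lay well above the highest control.

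SLC40A1 differed by 0.43 ± 0.07 (SE, adjusted p = 0.0971) and FTL by 0.34 ± 0.07 (adjusted p = 0.144). SLC40A1 passed among genes above the median signal and with array weights, and FTL with an intensity trend and with array weights. TFRC, the transferrin receptor that brings iron in, read 10.17, 9.99 and 10.07 with celecoxib, against 9.93, 9.85 and 9.94 in controls (0.17 ± 0.08, adjusted p = 0.442). Ferritin genes have processed pseudogenes, so the FTL cluster may also read these. Among 31 measured of 32 further genes of iron handling and ferroptosis, 12 differences were positive and 19 negative (median -0.04). None of them passed in limma, and 0 had an unadjusted p under 0.05.

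The NADPH genes went in both directions. ME1, cytosolic malic enzyme, read 4.75, 4.88 and 4.88 with celecoxib, against 4.47, 4.44 and 4.32 in controls (0.43 ± 0.08, SE, adjusted p = 0.0987). The groups lay apart, but the cluster was among the dimmest 20% of genes, and the filters on dim genes left it out. TKT, transketolase of the pentose phosphate pathway, read 10.84, 10.85 and 10.78 with celecoxib, against 11.03, 11.06 and 10.99 in controls. Its difference was -0.21 ± 0.07 (adjusted p = 0.340), with every celecoxib array lower. PGD, which makes NADPH in that pathway, and TALDO1, transaldolase, differed by 0.02 each, with intervals of -0.13 to 0.17 and -0.19 to 0.23. Without celecoxib 1 they differed by -0.006 and -0.039.

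**Figure D2:**
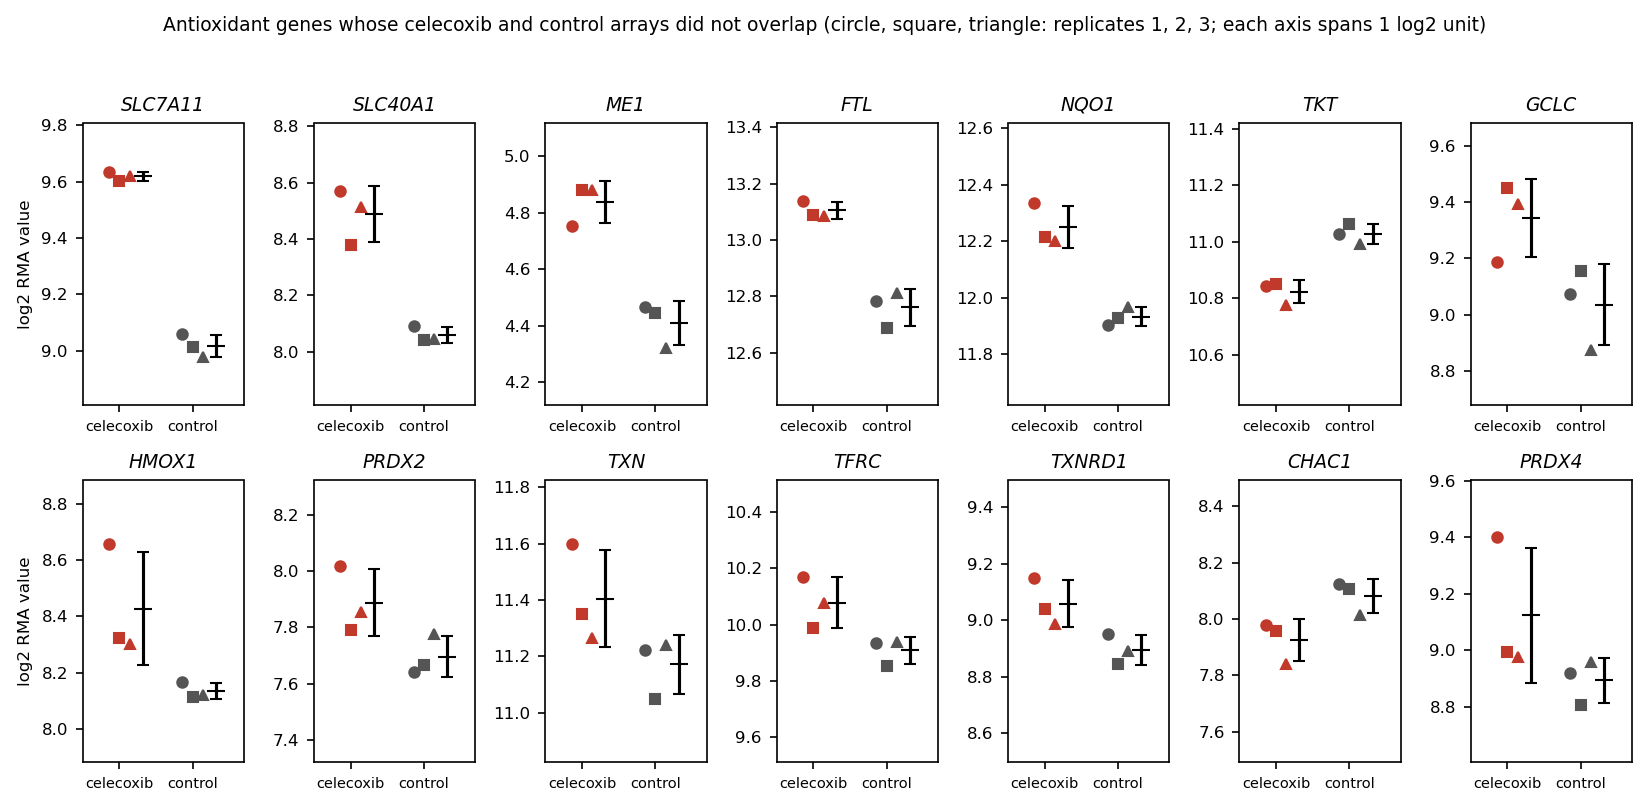
Log2 RMA values (vertical axis, each spanning 1 log2 unit) of the 14 genes whose groups did not overlap, ordered by p, with celecoxib arrays left in red and control arrays right in grey; bars are mean ± SD of 3 arrays. SLC7A11 and FTL show tight celecoxib arrays far above the controls, whereas in HMOX1, TXN and PRDX4 celecoxib 1 lies apart from the other celecoxib arrays.

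The regulators did not separate the groups. NFE2L2 read 9.47, 9.92 and 9.77 with celecoxib, against 9.87, 10.03 and 9.60 in controls (-0.11, interval -0.44 to 0.22). KEAP1 read 8.10, 8.29 and 8.24 with celecoxib, against 8.19, 8.28 and 8.19 in controls (-0.01, interval -0.19 to 0.17). Without celecoxib 1 these differences were 0.01 and 0.04. NRF2 is known to be controlled largely through degradation of its protein, which these arrays do not measure.

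A list of 39 NRF2 partners, further targets and NADPH genes had 36 measured, 27 with a positive difference (median 0.08). One passed, SQSTM1, the autophagy receptor that binds KEAP1. It read 10.42, 10.37 and 10.43 with celecoxib, against 9.82, 9.78 and 9.87 in controls, and rose by 0.58 ± 0.07 (SE, limma adjusted p = 0.0296). When any 1 array was left out the difference was 0.56 to 0.61 and the adjusted p 0.078 to 0.239, and the call held in 9 of 17 alternatives, which did not include the replicate block or the test of all clusters. TRIM16, a tripartite-motif protein, read 9.66, 9.78 and 9.61 with celecoxib, against 10.24, 10.31 and 10.13 in controls (-0.55 ± 0.08, adjusted p = 0.0546). It was the largest negative difference of the list, with no overlap. A further cluster that carries the TRIM16 symbol together with that of another gene was not read. ME2, the mitochondrial malic enzyme, differed by 0.18 ± 0.07 and UGDH, which makes UDP-glucuronate, by 0.17 ± 0.07, both with no overlap and neither past the threshold.

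Several of the peroxidases and reductases are selenoproteins, so the genes that insert selenocysteine and further selenoproteins were described too. Of 23 listed, 22 were measured, 13 with a positive and 9 with a negative difference (median 0.06), and 0 passed in limma, where 4 had an unadjusted p under 0.05. Without celecoxib 1 the median was 0.004, with 11 of the 22 positive. SEPSECS, which makes selenocysteine on its tRNA, read 8.41, 8.21 and 8.13 with celecoxib, against 8.02, 7.93 and 7.75 in controls (0.35 ± 0.10, SE, adjusted p = 0.304). SELENOS, a selenoprotein of the endoplasmic reticulum, differed by 0.23 ± 0.08, and DIO2, a deiodinase whose cluster was dim, by -0.16 ± 0.07.

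One array, celecoxib 1, moved with much of this set. It held the highest of the 6 values in 27 of the 40 genes (67.5%), against 27.4% of all genes. Control 2 stood out as well, with the lowest value in 20 of the 40, against 3723 of all 18417 genes. Without control 2 the median difference of the 40 was 0.098. The median shift of the 40 genes from their control means was 0.26 on celecoxib 1, 0.09 on celecoxib 2 and 0.03 on celecoxib 3, against 0.01, -0.02 and 0.03 on controls 1, 2 and 3. Celecoxib 3 thus lay no higher than control 3 in this median. Over all genes the same median stayed between -0.01 and 0.01 on every array.

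**Figure D3:**
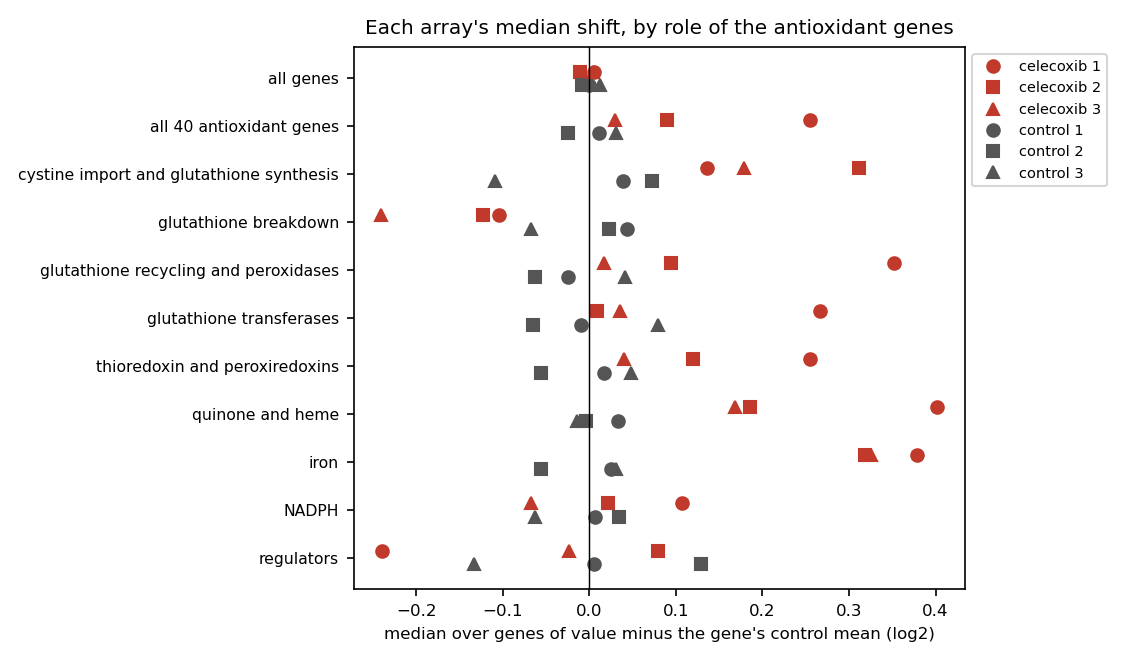
Median over genes of each array's value minus the gene's control mean (log2, horizontal axis), for all genes, the 40 antioxidant genes and each role (vertical axis); red marks celecoxib arrays, grey control arrays, and symbols the replicate. For iron the medians of 3 genes lie at 0.32 to 0.38 on the celecoxib arrays, although each of these genes was highest on celecoxib 1. For the transferases celecoxib 1 (0.27) lies apart from celecoxib 2 and 3 (0.01 and 0.04).

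The genes fell apart by how much they owed to celecoxib 1. Without celecoxib 1 the median difference of the 40 was 0.05, with 31 positive, where 48.1% of all genes were, and 15 of the 32 positive differences (46.9%) shrank to under 50% of their size, as did 2822 of the 8823 positive differences over all genes (32.0%). Of the 8 transferases, all positive, 7 did so, and 4 of the 5 recycling and peroxidase genes with a positive difference. In the iron group 0 of 3 did so, and its median, which is FTL in both cases, was 0.33 without celecoxib 1 and 0.34 with it. SLC40A1 went from 0.43 to 0.39 and TFRC from 0.17 to 0.12, and all 3 iron genes were highest on celecoxib 1. SLC7A11 differed by 0.59, ME1 by 0.47, SLC40A1 and GCLC by 0.39 each, FTL by 0.33 and NQO1 by 0.27 without celecoxib 1.

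SLC7A11 had an adjusted p of 0.0724 without celecoxib 1. What sets celecoxib 1 apart was not tested.

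**Figure D4:**
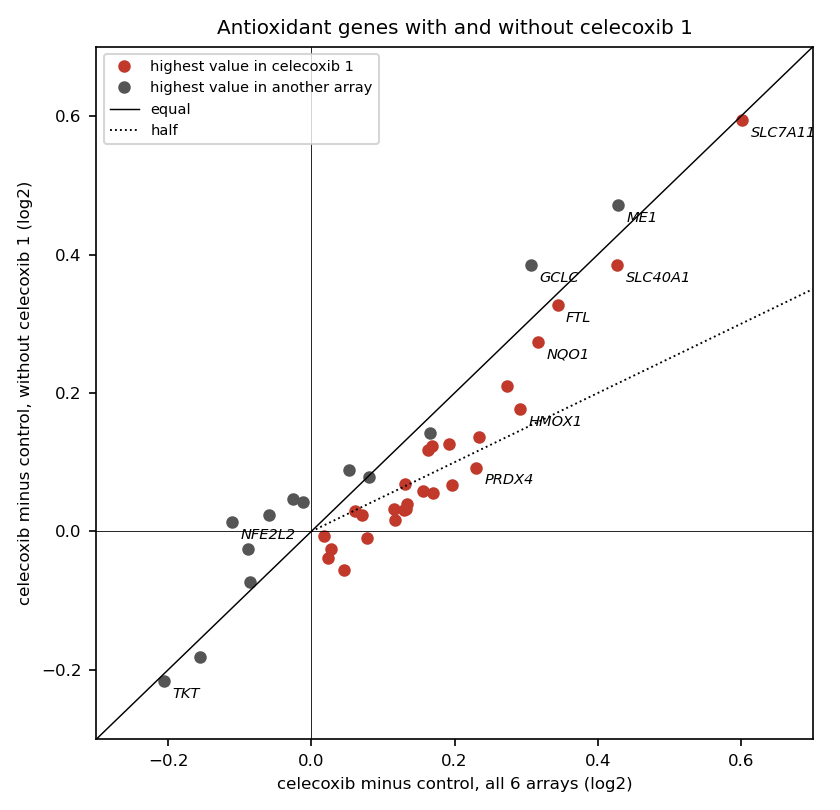
Celecoxib minus control difference (log2) of each of the 40 genes with all 6 arrays (horizontal axis) and without celecoxib 1 (vertical axis); red marks genes whose highest value was on celecoxib 1. SLC7A11, SLC40A1, FTL and NQO1 (red) lie near the line of equality, and ME1 and GCLC (grey) lie above it. Most of the other red points lie near or below the dotted line, which marks 50% of the difference with all arrays.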

How the data were processed

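The 6 arrays were deposited as 1 table with a row for each of 33297 transcript clusters. Its log2 values were made by the authors with RMA, in Affymetrix Expression Console 1.1, per the submitters' processing notes. Scanner files and probe-level settings were not analysed, so signal over background is unknown, and the number of arrays limits the precision. Symbols came from the platform annotation: 19460 clusters had 1 symbol, and the brightest cluster per gene gave 18417 genes. Celecoxib was compared with control with limma 3.58.1 (lmFit, eBayes; R 4.3.3), with Benjamini-Hochberg adjustment over all genes and a threshold of 0.05, two-sided. The fit was also run on simulated data with noise drawn independently for each value. These held no shift shared by genes on 1 array, so they do not bear on celecoxib 1. Genes, lists and alternatives were chosen with earlier results of these data known. Every gene of the set is named; of the 6 further lists (159 genes, 145 measured), genes past the threshold are named, and up to 3 per list with the smallest unadjusted p under 0.05 and no overlap. RefSeq promoters were searched for motifs on both strands. Alternatives were averaging the clusters of each gene, all clusters tested together, 2 filters on dim genes, 3 normalizations, 2 variance priors, array weights, the replicate block and leaving out each array. Figures used matplotlib 3.10.9 and Python 3.11.15.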

Additional observations from a re-analysis of the deposited data

How the results depend on the processing

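With all 6 arrays and the settings of the text, limma called 26 genes and 1 of the 40 antioxidant genes. Without 1 array limma called 0 to 5 genes and 0 of the 40, where 1293 to 2353 genes and 6 to 11 of the 40 had an unadjusted p under 0.05. Limma called 0 genes and 0 of the 40 with all clusters tested together (an unadjusted p under 0.05 was reached by 1569 genes and 8 of the 40, and the smallest adjusted p was 0.0839). Among genes above the median signal 76 were called, and 2 of the 38 antioxidant genes that this filter leaves (SLC7A11 and SLC40A1). Without the dimmest 20%, 59 were called, with a further quantile normalization 40, and with cyclic loess 47. With an intensity trend, with or without a robust prior, 69 were called, and 2 of the 40 (SLC7A11 and FTL). With array weights 177 were called, and 5 of the 40 (SLC7A11, NQO1, FTL, SLC40A1 and ME1). Control 1 then had a weight of 5.85 and the other arrays 0.37 (celecoxib 1) to 1.21 (celecoxib 3), so this setting leaned on a single control array.

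With the replicate block, limma called 0 genes and 0 of the 40, where 2448 genes and 10 of the 40 had an unadjusted p under 0.05. Same-numbered arrays deviated together only for replicate 2 (r = -0.018, 0.494 and 0.012 for replicates 1 to 3, across genes). Not every array correlated best with its own number. The values were centred within groups of 3 arrays, so this check cannot decide whether same-numbered samples were paired. The labels give a replicate number and do not state a pairing.

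The median difference of the 40, 0.13, lay between 0.052 (without celecoxib 1) and 0.17 when 1 array was left out. Over the 17 alternatives 28 of the 40 kept their sign. The others, all uncalled, turned sign when 1 array was left out or under a setting named here: GCLM (-0.252 to 0.096 without 1 array), GSR (-0.103 to 0.047, and 0.011 with arrays centred on the median), GPX7 (0.023 with array weights), GSTM3 (-0.01 to 0.151), GSTO1 (-0.056 to 0.142), TXNRD2 (-0.147 to 0.004), PRDX1 (-0.026 to 0.055, and -0.019 with array weights), AIFM2 (-0.013 to 0.104), PGD (-0.006 to 0.031, and -0.003 with cyclic loess), TALDO1 (-0.039 to 0.098, and -0.041 with array weights), NFE2L2 (-0.229 to 0.013) and KEAP1 (-0.051 to 0.043, 0.026 with arrays centred and 0.03 with array weights). The cause of these changes was not tested. Without scanner files, how far dim genes such as ME1 lie above background is not known.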
